A study of Mus musculus with 24 samples.

Results

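The antiviral interferon-stimulated genes are a set of 47 mouse genes whose products act against viruses inside the cell and whose transcription follows type I interferon. Members were found by matching the accession of each array probe to a gene symbol, which gave a probe for 43 of the 47 genes, and all 43 were tested among 20210 features, of which 12649 were named genes. Mx1, Mx2, Oas1b and Ddx60 had no probe matched by accession and have no value. Expression was measured with 1-colour Agilent arrays on total RNA of dendritic cells, grown for 9 days from C57BL/6 mouse bone marrow with human Flt3 ligand at 100 ng/ml. The cells were wild type (WT), or lacked the transcription factor Irf5 (Irf5-KO), the Src-family tyrosine kinase Lyn (Lyn-KO) or both (DKO). Each genotype was left unstimulated or given CpG-B ODN (1668), a synthetic DNA that Toll-like receptor 9 senses, for 6 h at 150 nM. This made 8 groups of 3 arrays, 24 in all. The labels give genotypes without the type of allele, and do not say whether the 3 samples of a group are separate cultures or mice, so p-values measure the spread between these samples, which may be technical.

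Type I interferons bind a receptor made of Ifnar1 and Ifnar2, which activates the kinases Jak1 and Tyk2. The signal passes to a complex with Stat2 and Irf9, which binds the interferon-stimulated response element in the promoters of these genes. Cells also transcribe part of the set without added stimulus, at a level called tonic, and plasmacytoid dendritic cells secrete large amounts of interferon when Toll-like receptor 9 senses DNA. Irf5 acts downstream of the adaptor Myd88, and Lyn is known both as a kinase of inhibitory and activating receptors and as a negative regulator of Irf5.

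The promoters were searched for the core of the interferon-stimulated response element. This core, GAAA-NN-GAAA, in which N is any base, was sought on both strands from 250 bases before to 50 bases after each transcription start in RefSeq promoters of the assembly GRCm38.p6. It was present for 13 of the 38 members with an entry (34.2%) and for 1079 of all 27025 genes with one (3.99%). A separate motif, TTCNNNGAA, which is not a form of this core, was added after the first result. That motif was present for 8 of the 38 (21.1%), against 9.55% of all genes. Neighbouring promoters can share letters, and a match says only that these letters are in this window. The stretches below are from 8 members whose levels are described later, 5′ to 3′ on the strand of the gene, with capitals marking matches on either strand, overlapping ones joined. Ifit1 lies at chr19:34640760-34640838 on the plus strand, Ifit3 at chr19:34583348-34583441 on the plus strand, Isg15 at chr4:156200850-156200921 on the minus strand and Rsad2 at chr12:26456538-26456597 on the minus strand. Bst2 lies at chr8:71537562-71537627, Oas1a at chr5:120907526-120907570, Oas1g at chr5:120887614-120887656 and Oas3 at chr5:120777700-120777759, all on the minus strand.
Ifit1: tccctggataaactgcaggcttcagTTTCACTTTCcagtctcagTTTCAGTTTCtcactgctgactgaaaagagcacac
Ifit3: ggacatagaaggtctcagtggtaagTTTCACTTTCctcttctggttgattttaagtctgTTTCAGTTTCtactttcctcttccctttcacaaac
Isg15: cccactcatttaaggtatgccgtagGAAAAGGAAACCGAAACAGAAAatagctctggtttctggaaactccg
Rsad2: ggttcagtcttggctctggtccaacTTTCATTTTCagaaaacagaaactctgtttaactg
Bst2: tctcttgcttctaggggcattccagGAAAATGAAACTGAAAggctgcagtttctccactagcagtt
Oas1a: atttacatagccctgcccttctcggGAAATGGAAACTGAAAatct
Oas1g: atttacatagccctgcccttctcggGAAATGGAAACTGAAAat
Oas3: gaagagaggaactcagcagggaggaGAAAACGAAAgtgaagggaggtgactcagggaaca

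Ifit1 and Ifit3 hold 2 separate matches each, Isg15 has 3 that overlap, and Rsad2 and Oas3 have 1 each. The stretches of Oas1a and Oas1g are the same letter for letter over the shorter of them, and the coding parts of these copies are also close, so the array may not tell their transcripts apart. The same holds for Ifit3 and its copy Ifit3b. Several members are neighbours on a chromosome, namely Rsad2 with Cmpk2, Ifit2 with Ifit3, Oasl1 with Oasl2, Oas2 with Oas3, Oas1a with Oas1g, and Parp14 with Dtx3l and Parp9, so they are not independent of one another.

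A level is the log2 signal of a probe minus the 75th percentile of its array, so 0 is a signal at that percentile. A gene with several kept probes is given by the brightest. On each array 41% to 53.8% of spots exceeded background clearly, and none was saturated. A call means an adjusted p below 0.05 in limma across all features, two-sided. The Lyn probe was lower in Lyn-KO by 1.82 ± 0.09 (SE, log2) without stimulus, whereas the Irf5 probe differed by -0.30 in Irf5-KO (adjusted p 0.161) and by 0.64 with CpG-B. Where that probe lies against the deleted part is not known, so it does not check the Irf5 labels. Of the plasmacytoid dendritic cell markers, 10 of 10 were measured, and their median level was between 4.18 and 4.87 on the unstimulated arrays. B cell markers, 9 of 9 measured, were between 1.56 and 2.58 on unstimulated WT and Irf5-KO arrays, and between -2.66 and -1.24 on those of Lyn-KO and DKO.

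CpG-B raised the whole measured set in each of the 4 genotypes. All 43 members were called higher in WT, Irf5-KO, Lyn-KO and DKO, while 31.2%, 31.6%, 32.8% and 34.6% of all features were called higher in the same comparisons. In each genotype 40 members rose at least 2-fold, against 13.7%, 13.1%, 14% and 14.6% of all features. The median response of the members was 3.90, 4.13, 4.16 and 4.23 on the log2 scale, against -0.03, -0.02, -0.01 and 0.02 over all features. The 3 arrays with CpG-B lay above the 3 without it for every member, except for Ly6e in Lyn-KO. Over all features the groups did not overlap, in either direction, for 70.9%, 73.4%, 72.5% and 74.3%.

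**Figure D1:**
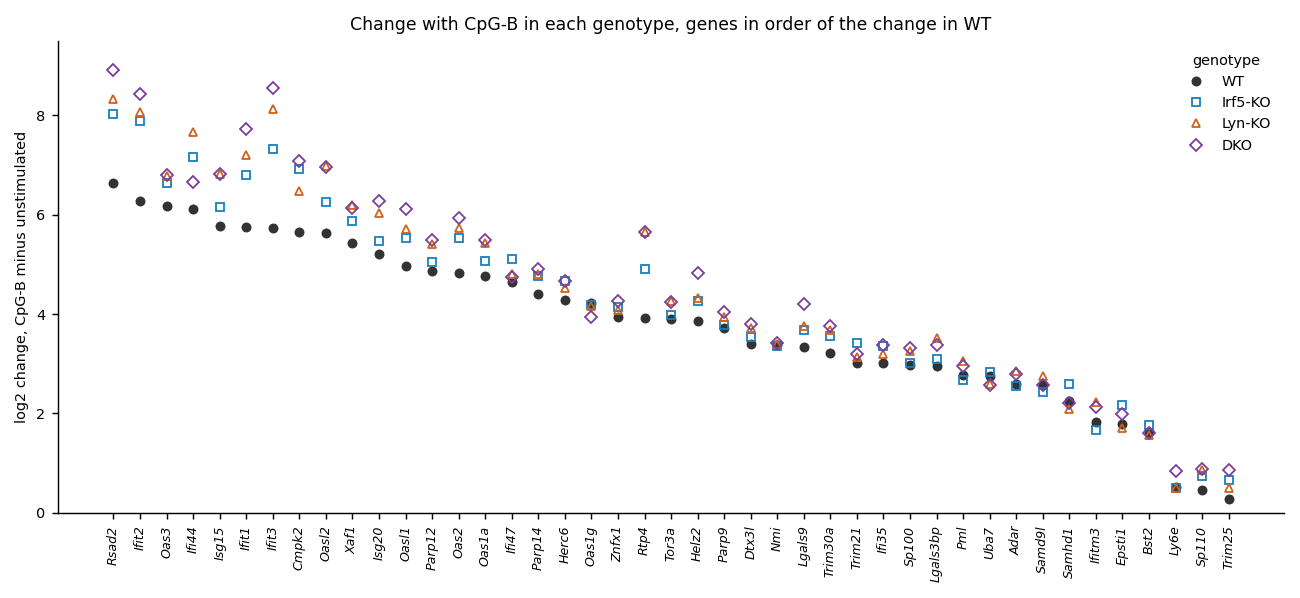
Log2 CpG-B response of each measured member in each genotype, 1 mark per genotype, members in order of the change in WT. All marks lie above 0, from 0.29 for Trim25 in WT to 8.90 for Rsad2 in DKO.

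Rsad2 encodes viperin, which makes a chain-terminating ribonucleotide, and on the probes used it had the largest response of the 43 members in all 4 genotypes. In WT its level was 0.79, -0.02 and -0.61 without stimulus and 6.78, 6.62 and 6.67 with CpG-B, an increase of 6.64 ± 0.28 or 99.6-fold. The increase in DKO was 8.90 ± 0.28 or 479-fold, with levels of -1.65, -0.98 and -2.19 before and 7.43, 7.05 and 7.42 after. No array overlapped between the conditions, and unstimulated DKO arrays lay below the WT ones whereas CpG-B arrays of DKO lay above them. Its neighbour Cmpk2, which phosphorylates pyrimidine nucleotides, rose from 0.06, -0.63 and -1.15 to 5.09, 5.14 and 4.99 in WT. Samhd1, which degrades deoxynucleotides, started high, at 5.12, 5.26 and 5.25, and reached 7.48, 7.47 and 7.43, a smaller rise of 2.25 ± 0.09.

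The Ifit proteins bind viral RNA and block its translation. Ifit2 rose in WT from 0.28, -0.82 and -1.16 to 5.67, 5.82 and 5.62, an increase of 6.27 ± 0.25. Ifit3 rose from 2.09, 0.97 and 0.15 to 6.87, 6.82 and 6.70 (5.73 ± 0.30), and Ifit1 from 0.83, 0.04 and -0.45 to 5.83, 5.99 and 5.87 (5.76 ± 0.26). For all 3 genes the unstimulated WT arrays were spread over more than 1 log2 unit, with replicate 1 highest, and the stimulated arrays were within a narrow range. In DKO the same responses were 8.44, 8.54 and 7.73.

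Isg15 is a ubiquitin-like protein that is conjugated to targets, with Uba7 as its activating enzyme and Herc6 as its ligase in mouse. Isg15 went from 4.81, 4.23 and 3.82 to 9.95, 9.96 and 10.28 in WT, an increase of 5.78 ± 0.21. Its signal with CpG-B was the highest of any probe on these arrays, and whether signals at that end are compressed was not tested. A dimmer second probe of Isg15 differed between Lyn-KO and WT by -0.01 with CpG-B and by -1.16 without. Uba7 rose by 2.76 ± 0.07 and Herc6 by 4.28 ± 0.10. A dimmer second probe of Herc6, well above background on 18 of 24 arrays, gave 7.21 in WT, so the size of the Herc6 rise depends on the probe. Trim25, a ubiquitin ligase that acts on the sensor Rig-I, moved least, from 6.03, 5.84 and 5.85 to 6.15, 6.31 and 6.12 (0.29 ± 0.08). That increase changed sign, to -0.03, under quantile normalisation.

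Several proteins of the oligoadenylate synthetase family, though not all, make 2′-5′ oligoadenylates that activate RNase L. All 6 measured members of the family rose. Oas3 had the largest rise in WT, 6.17 ± 0.22, from -1.80, -1.91 and -2.51 to 4.25, 4.09 and 3.96. Oasl1, which in mouse limits translation of Irf7, rose from 3.78, 3.71 and 3.39 to 8.56, 8.55 and 8.69, and Oas2 by 4.83 ± 0.16. Oas1g was not well above background on unstimulated arrays, so its increase is a lower bound of at least 4.46-fold in WT, 4.74-fold in Irf5-KO, 4.44-fold in Lyn-KO and 3.31-fold in DKO. With such bounds in place of fitted values the median of the members was 3.85, 3.98, 4.07 and 4.23.

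Of the nucleic acid enzymes, Isg20, an exonuclease, rose in WT from 2.89, 2.74 and 2.63 to 8.08, 7.92 and 7.91 (5.22 ± 0.09). The helicases Znfx1 and Helz2 rose by 3.95 ± 0.09 and 3.85 ± 0.08, and Adar, the RNA editing enzyme, by 2.60 ± 0.06. Parp12, Parp14, Parp9 and Dtx3l, enzymes of ADP-ribosylation and its partner ubiquitin ligase, rose by 4.86, 4.40, 3.73 and 3.40. For each of these 8 enzymes the 3 WT arrays with CpG-B lay above the 3 without it.

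Among the membrane proteins and nuclear body proteins the rises in WT ran from 0.47 for Sp110 to 3.93 for Rtp4. Bst2, known as tetherin, which holds budding virions on the cell, rose by 1.63 ± 0.08 in WT, from 6.33, 6.16 and 6.18 to 7.93, 7.89 and 7.74. Ifitm3, which blocks fusion of viruses in endosomes, rose by 1.83 ± 0.08. Ly6e, a surface protein that limits coronavirus entry, rose by 0.52 ± 0.15, and in Lyn-KO its levels of 7.16, 6.89 and 7.45 overlapped with 7.91, 7.81 and 7.29 under CpG-B. Sp110, a nuclear body protein, rose by 0.47 ± 0.14 in WT (0.32, adjusted p 0.0631 in limma, without replicate 2 of unstimulated WT), and its relative Sp100 by 2.98 ± 0.12. Trim25, Ly6e and Sp110 were the 3 members under 2-fold in each genotype on the probes used. Sp110 has 2 further probes, well above background on 24 of 24 arrays, and these gave 1.92 and 1.68 in WT, above 2-fold.

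Response size and unstimulated level varied with genotype. The largest of the 4 responses was in DKO for 26 members, in Lyn-KO for 10, in Irf5-KO for 6 and in WT for 1, and the smallest was in WT for 32. Members with a match to GAAA-NN-GAAA had a median WT response of 4.49 over 12 genes, from 1.63 for Bst2 to 6.64 for Rsad2. Those without one had 3.40 over 25 genes, from 0.29 for Trim25 to 6.27 for Ifit2, so the ranges overlapped widely. This is a description of the genes with a promoter entry.

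Without stimulus, more members were called lower than WT in Lyn-KO and DKO than in Irf5-KO. Against WT, 21 members were called lower and 1 higher in Lyn-KO, where 2.75% of all features were called lower and 1.83% higher. In DKO 18 were lower and 1 higher, against 3.62% and 3.16% of all features. In Irf5-KO 2 were lower and 0 higher, against 0.421% and 0.317%. At an unadjusted p of 0.05 limma gave 27 lower and 1 higher there, against 10.5% of all features in either direction. At that p it gave 31 lower and 1 higher in Lyn-KO and 28 lower and 2 higher in DKO. The share of all features was 16.3% and 19%, so the counts of the 3 mutants were close at that p. The median difference of the members was -0.34 in Lyn-KO, -0.36 in DKO and -0.23 in Irf5-KO, with 0.01, -0.0047 and -0.02 over all features. These 3 comparisons share the WT arrays. In RNA from a whole culture, fewer cells of a type and less RNA per cell cannot be told apart.

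**Figure D2:**
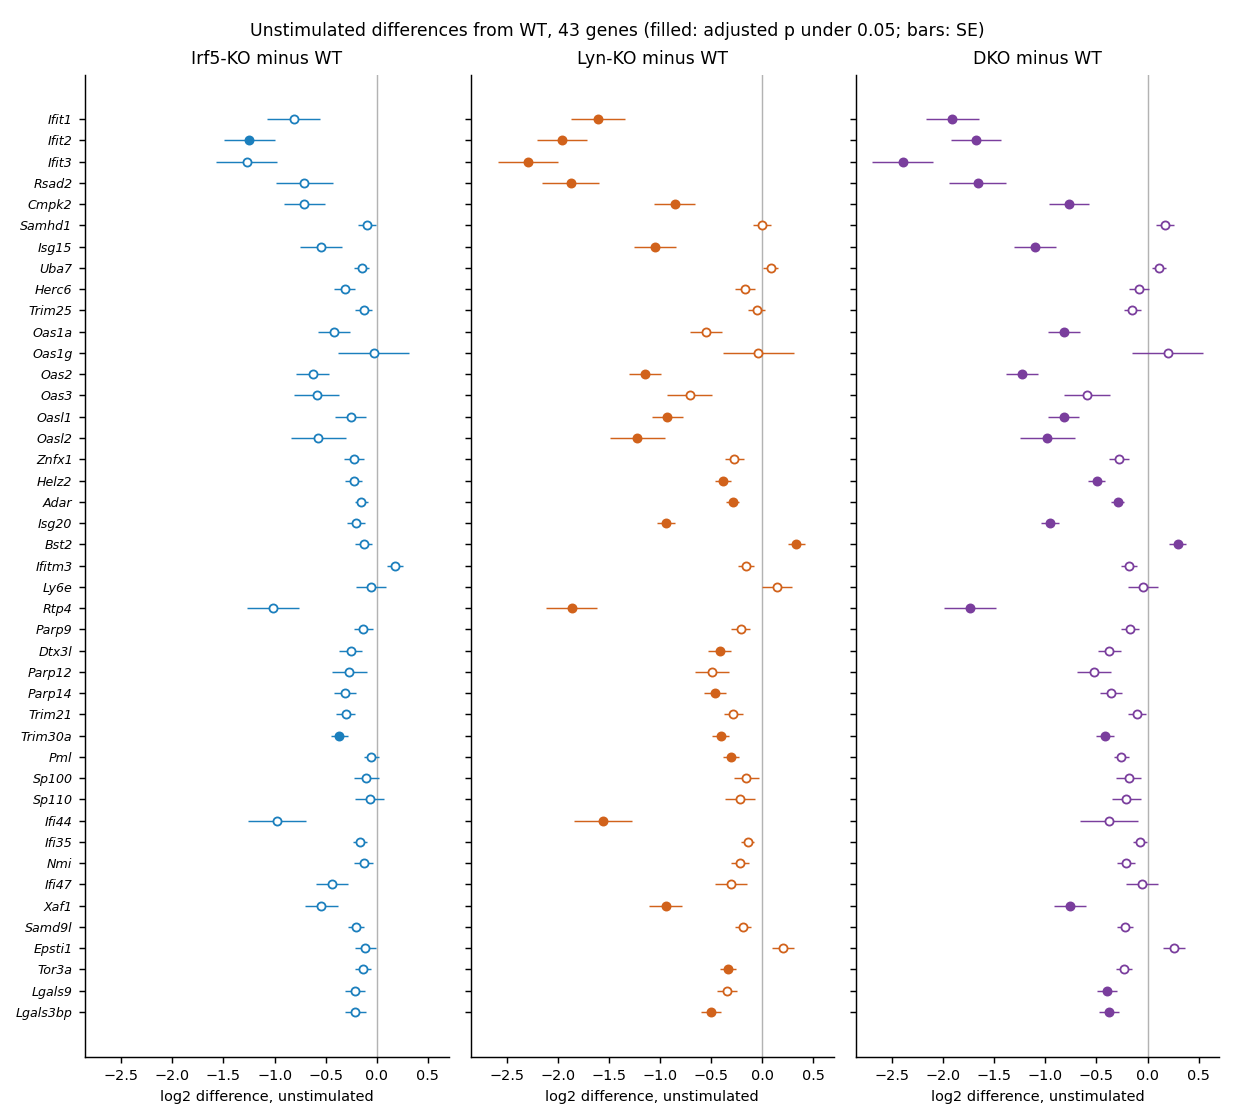
Log2 difference from WT of each measured member without stimulus, for Irf5-KO, Lyn-KO and DKO, with filled marks for members called by limma, open marks for the others and bars for the SE. Ifit3 is lowest in Lyn-KO and DKO, at -2.29 and -2.40, and Bst2 is the only called member above 0.

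All 3 Ifit genes fell in Lyn-KO and in DKO. Unstimulated Ifit3 was at 2.09, 0.97 and 0.15 in WT, at -0.44, 0.06 and -0.23 in Irf5-KO, at -1.07, -1.36 and -1.23 in Lyn-KO and at -1.36, -1.02 and -1.59 in DKO. The mutant arrays all lay below the WT ones, and those of Lyn-KO and DKO lay below those of Irf5-KO. Relative to WT, Ifit3 was lower in Lyn-KO by 4.90-fold (-2.29 ± 0.30, adjusted p 6.27e-05 by limma) and in DKO by 5.26-fold (-2.40, adjusted p 3.82e-05 by limma). In Irf5-KO the difference of -1.27 had an adjusted p of 0.0543 in limma. These values use 1 spread per gene, shared by the 8 groups. With only the groups compared in the fit, Ifit3 was not called, with adjusted p by limma of 0.103 in Lyn-KO and 0.073 in DKO. Ifit1 was at -0.52, -0.63 and -0.87 in Irf5-KO, at -1.12, -1.57 and -1.72 in Lyn-KO and at -2.01, -1.16 and -2.15 in DKO, each array below the 3 WT arrays given above. Its difference from WT was -1.61 ± 0.26 in Lyn-KO and -1.91 ± 0.26 in DKO. Ifit2 was called in all 3 mutants, at -1.96 ± 0.25 in Lyn-KO and -1.68 ± 0.25 in DKO.

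Rsad2 stood at -0.82, -0.49 and -0.66 in unstimulated Irf5-KO, which overlapped with WT, and at -1.54, -2.07 and -1.86 in Lyn-KO, which did not. It fell by 1.87 ± 0.28 in Lyn-KO and by 1.66 ± 0.28 in DKO. Rtp4, a chaperone of membrane receptors, was at 3.68, 3.09 and 2.51 in WT and at 1.42, 1.17 and 1.10 in Lyn-KO. Its difference was -1.86 ± 0.25 there and -1.74 ± 0.25 in DKO, whose arrays were at 1.28, 2.04 and 0.76. Cmpk2 was lower by 0.86 in Lyn-KO without overlap, and its call in DKO (-0.77, adjusted p 0.0236 by limma) came with arrays that overlapped with WT.

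Isg20 fell with close replicates in every group. Its level was 2.89, 2.74 and 2.63 in WT, 2.46, 2.63 and 2.56 in Irf5-KO, 1.92, 1.72 and 1.80 in Lyn-KO, and 1.76, 1.96 and 1.67 in DKO. The arrays split into those with Lyn and those without it, with a gap between them. Isg20 fell by 0.94 ± 0.09 in Lyn-KO (adjusted p 2.38e-06 by limma) and by 0.95 ± 0.09 in DKO. Oas2 was at 2.16, 1.77 and 1.38 in WT, at 1.12, 1.27 and 1.03 in Irf5-KO, at 0.66, 0.65 and 0.55 in Lyn-KO and at 0.73, 0.75 and 0.13 in DKO, and again every array without Lyn lay below every array with it. Oasl1 fell by 0.93 ± 0.15 in Lyn-KO and by 0.82 ± 0.15 in DKO, and Isg15 by 1.05 ± 0.21 and 1.10 ± 0.21.

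Other falls in Lyn-KO were called for Oasl2 (-1.22), Xaf1, a binding partner of the apoptosis inhibitor Xiap (-0.94), Lgals3bp, a secreted galectin-binding protein (-0.50), Parp14 (-0.46), Dtx3l (-0.42), Trim30a (-0.41), Helz2 (-0.38), Tor3a (-0.34), Pml (-0.30) and Adar (-0.29). Trim30a was also called in Irf5-KO, at -0.37 with an adjusted p of 0.0498 in limma. Oas1a (-0.82) and Lgals9 (-0.40) were called lower in DKO. Ifi44, a cytoplasmic protein of unclear function, was at -1.78, -2.17 and -2.58 in WT and at -4.50, -3.50 and -3.19 in Lyn-KO, with 2 of the 3 Lyn-KO arrays above background. Its difference was -1.55 ± 0.28 in Lyn-KO, while in DKO, at -3.19, -2.11 and -2.35, it overlapped with WT and was also above background on 2 of 3 arrays. With normexp correction and quantile normalisation the Ifi44 difference in Lyn-KO was -0.65 and still called, so its size depends on the processing.

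Bst2 went the other way. Its unstimulated level was 6.33, 6.16 and 6.18 in WT, 6.12, 5.99 and 6.18 in Irf5-KO, 6.61, 6.46 and 6.61 in Lyn-KO and 6.51, 6.55 and 6.51 in DKO. Every array without Lyn lay above every array with it. The increase over WT was 0.33 ± 0.08 in Lyn-KO (adjusted p 0.0248 by limma) and 0.30 ± 0.08 in DKO. Bst2 is also a surface marker of plasmacytoid dendritic cells, and the median level of the 10 markers of these cells was 4.42 to 4.54 on unstimulated WT arrays, 4.18 to 4.45 in Irf5-KO, 4.68 to 4.87 in Lyn-KO and 4.71 to 4.83 in DKO. The part of these cells in the Bst2 result was not tested.

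**Figure D3:**
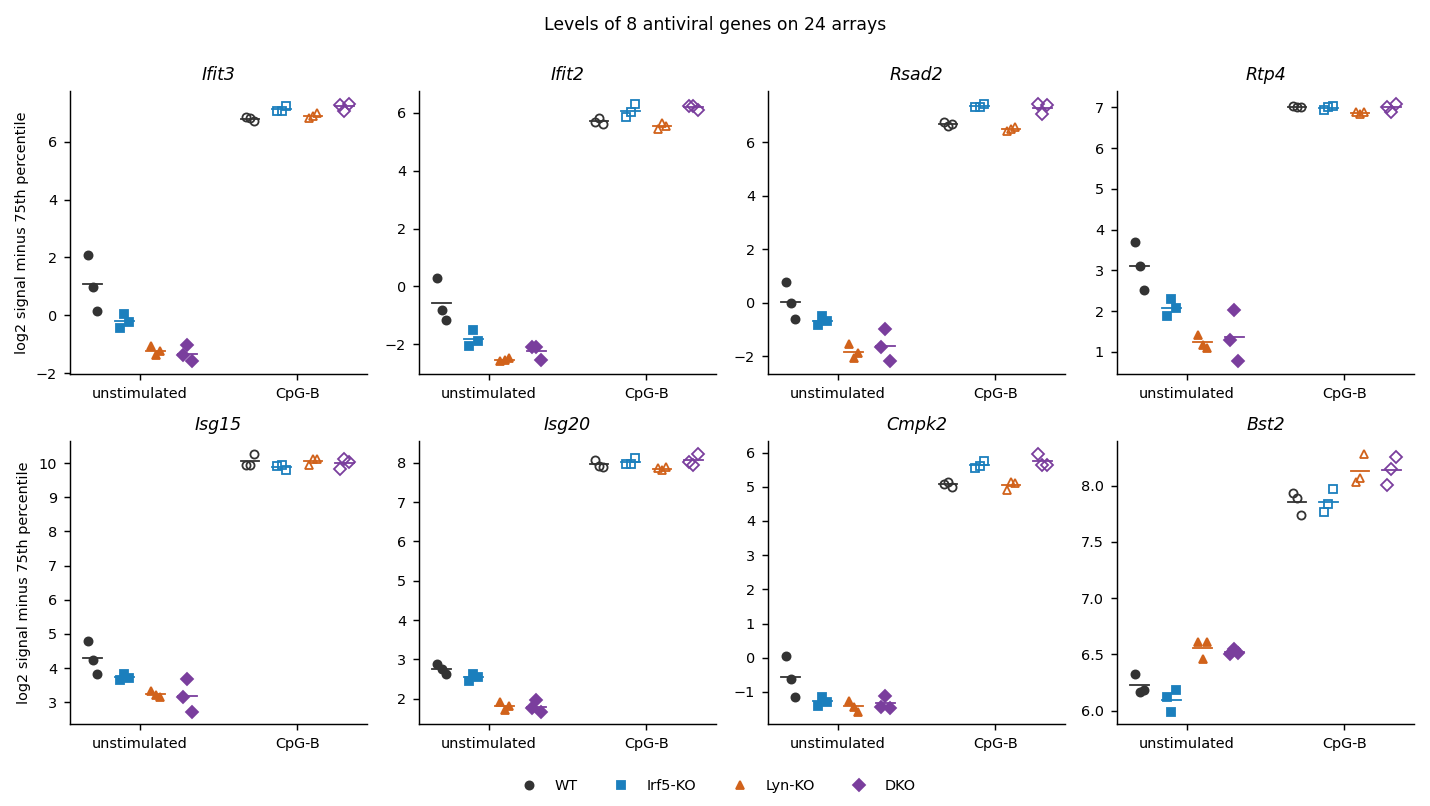
Levels (log2 signal minus the 75th percentile of the array) of 8 members on the 24 arrays, 1 point per array and a bar for the group mean, with its own vertical axis for each gene. Unstimulated Ifit3 spans from 2.09 to -1.59, and with CpG-B its arrays lie between 6.70 and 7.32.

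The loss of Lyn was also compared in cells that lacked Irf5. In DKO against Irf5-KO without stimulus, 6 members were called lower and 2 higher, where 2.87% of all features were called lower and 2.48% higher. The median difference of the members was small, at -0.10, against 0.02 over all features. Within slides 1, 2 and 3 that median was -0.14, 0.03 and -0.20, with 12, 22 and 9 of 43 members higher in DKO. Ifit3 differed by -1.12 ± 0.30, Ifit1 by -1.10 ± 0.26, Isg20 by -0.75 ± 0.09, Oas2 by -0.60 ± 0.16, Oasl1 by -0.56 ± 0.15 and Ifitm3 by -0.36 ± 0.08, and Bst2 by 0.42 ± 0.08. Ifitm3 was at 5.88, 5.93 and 5.93 in Irf5-KO and at 5.61, 5.55 and 5.50 in DKO, and Oasl1 was the only one of the 8 whose arrays overlapped. The other called increase was Uba7, at 0.26 ± 0.07. Over all 43 members this difference and that of Lyn-KO against WT, which have no array in common, correlated across genes with r = 0.716 and rho = 0.722, and 32 members were lower in both. Genes are not independent replicates, and both differences come from the same 3 slides. Leaving out 1 array of Irf5-KO gave 4, 3 or 4 called members in DKO against Irf5-KO, and leaving out replicate 1 of DKO gave 4. The calls of Isg20, Bst2 and Ifitm3 held whichever of the 24 arrays was left out. Ifit1, Ifit3, Oas2, Oasl1 and Isg20 were called lower in both comparisons, and Bst2 was called higher in both.

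The loss of Irf5 in cells lacking Lyn left no called member. In DKO against Lyn-KO without stimulus limma called 0 of 43 members, against 0.163% of all features. At an unadjusted p of 0.05 limma gave 1 member, against 6.68% of all features. Without replicate 1 of unstimulated DKO 1 member was called. The median difference was 0.04. The test of whether the Lyn effect depended on Irf5 called 1 member, Ifi44, at 2.16, against 0.0841% of all features. At an unadjusted p of 0.05 limma gave 19 members higher and 0 lower, against 5.57% of all features in either direction. Fitting the slide as a block left 0 members called by this test. The call of Ifi44 was lost when any of 21 of the 24 arrays was left out, and without replicate 3 of unstimulated WT 3 members were called. With CpG-B the same test called 0 members in limma, against 3.61% of all features, and 0 at an unadjusted p of 0.05, against 15.9%.

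The spread of the unstimulated WT arrays touches all of these differences. WT was the highest of the 4 genotypes for 36 of 43 members, and among the 3 WT arrays replicate 1 was highest for 35 members and replicate 3 lowest for 33. The median SD of the members was 0.18 in WT, 0.21 in DKO and 0.10 in both Lyn-KO and Irf5-KO, against 0.11 and 0.10 over all features in WT and DKO, and Ifit3 had an SD of 0.98 in WT. With the slide as a block, 1 member, Ifit2, was called in Irf5-KO. Without replicate 1 of WT, 14 members were called lower in Lyn-KO, 13 in DKO and 1 in Irf5-KO, and without replicate 3 of WT 9 were called in Irf5-KO. Leaving out 1 of the arrays of Irf5-KO gave 0, 1 or 0 there. Of the 22 calls in Lyn-KO, 13 held whichever of the 24 arrays was left out. The other calls, of Cmpk2, Oasl2, Helz2, Adar, Bst2, Dtx3l, Parp14, Pml and Tor3a, each ended without 1 of the unstimulated WT or Lyn-KO arrays, with adjusted p in limma of up to 0.17 for Dtx3l. In DKO 13 of 19 calls held, and those of Cmpk2, Oasl2, Adar, Bst2, Lgals9 and Lgals3bp ended without 1 of the unstimulated WT or DKO arrays, with adjusted p of up to 0.172 for Oasl2 in limma. The call of Ifit2 in Irf5-KO ended without replicate 1 or replicate 3 of Irf5-KO, with adjusted p in limma of up to 0.107, and that of Trim30a without any of 23 arrays. Each slide held 1 array of every group, and within slides 1, 2 and 3 the median difference of the members was -0.52, -0.41 and -0.25 in Lyn-KO, -0.53, -0.15 and -0.34 in DKO and -0.43, -0.24 and -0.12 in Irf5-KO. With only the 6 arrays of a comparison in the fit, 2 members were called in Lyn-KO (Isg20 and Oasl1), 1 in DKO (Isg20) and 0 in Irf5-KO. Ifit1, Ifit2, Ifit3, Rsad2, Rtp4 and Isg15 were thus not called in that fit. The groups did not overlap for 29 of 43 members in Lyn-KO (67.4%), 25 in DKO (58.1%) and 16 in Irf5-KO (37.2%), and for 21%, 24.5% and 18% of all features.

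B cell markers were lower in unstimulated cells lacking Lyn, and not in Irf5-KO. The log2 of their summed level, over 9 of 9 genes, was 5.80 to 6.28 on unstimulated WT arrays, 6.40 to 6.68 in Irf5-KO, 3.15 in Lyn-KO on every array, and 2.99 to 3.51 in DKO. Of the 9 markers, 8 were called lower than WT in Lyn-KO and 8 in DKO. The summed level of the neutrophil markers, 8 of 9 measured, was 6.59 to 6.91 in WT and 5.36 to 6.41 in DKO. The sum of the type 1 conventional dendritic cell markers, 7 of 8 measured, was 8.14 to 8.35 in WT and 8.01 to 8.27 in Lyn-KO. The part of these cells in the unstimulated differences of the members was not tested.

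The upstream genes were measured beside the set. Irf9 was called lower in unstimulated Lyn-KO (-0.48 ± 0.11) and in DKO (-0.40 ± 0.11). Usp18, the protease that removes Isg15 from proteins and restrains the interferon receptor, was lower by 1.25 ± 0.24 in Lyn-KO and by 1.26 ± 0.24 in DKO. Irf7, the factor that amplifies interferon transcription, was not called in any unstimulated comparison, at -0.54 in Lyn-KO, -0.43 in DKO and -0.42 in Irf5-KO. Ifnb1, the gene for interferon beta, was called lower in Lyn-KO and in DKO, but it was well above background on only 1 of 3 arrays in each, so no fold is given. The 9 genes of the Toll-like receptor 9 pathway differed from WT without stimulus by -0.20 (Traf3 in DKO) to 0.15 (Unc93b1 in DKO). Limma called 0 of them in Irf5-KO, Lyn-KO or DKO, and gave 1, 1 and 2 at an unadjusted p of 0.05. The share of all features at that p was 10.5%, 16.3% and 19%.

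In the fit of all 24 arrays, fewer members were called against WT in Lyn-KO and DKO with CpG-B than without it. With only the groups compared in the fit, this held for Lyn-KO (1 and 2) but not for DKO (13 and 1). In the fit of all arrays, limma called 3 members higher and 2 lower than WT in Irf5-KO. It called 2 higher and 0 lower in Lyn-KO, and 8 higher and 1 lower in DKO. Over all features 14.4% were called higher and 11.1% lower in Irf5-KO, 13.9% and 11.2% in Lyn-KO, and 24.9% and 19.9% in DKO. These comparisons share the WT arrays with CpG-B. At an unadjusted p of 0.05 limma gave 2 members higher and 1 lower in Lyn-KO, against 36.2% of all features in either direction. The groups did not overlap for 24 of 43 members in DKO (55.8%), 14 in Lyn-KO (32.6%) and 14 in Irf5-KO (32.6%), and for 53.5%, 40.6% and 38.4% of all features. The median difference of the members was 0.01, -0.02 and 0.12, against 0.02, 0.05 and 0.06 over all features. Rtp4, which differed by -1.86 in Lyn-KO before stimulation, was at 7.03, 7.02 and 7.01 in WT and at 6.88, 6.85 and 6.89 in Lyn-KO after it, a difference of -0.15 (adjusted p 0.72 by limma). The count in Irf5-KO was 1 or 2 when any of its 3 arrays or of the 3 WT arrays with CpG-B was left out, and 8 without replicate 2 of unstimulated DKO. In Lyn-KO it was 0 without replicate 3 of WT or of Lyn-KO with CpG-B, and 1 without replicate 2 of Lyn-KO.

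**Figure D4:**
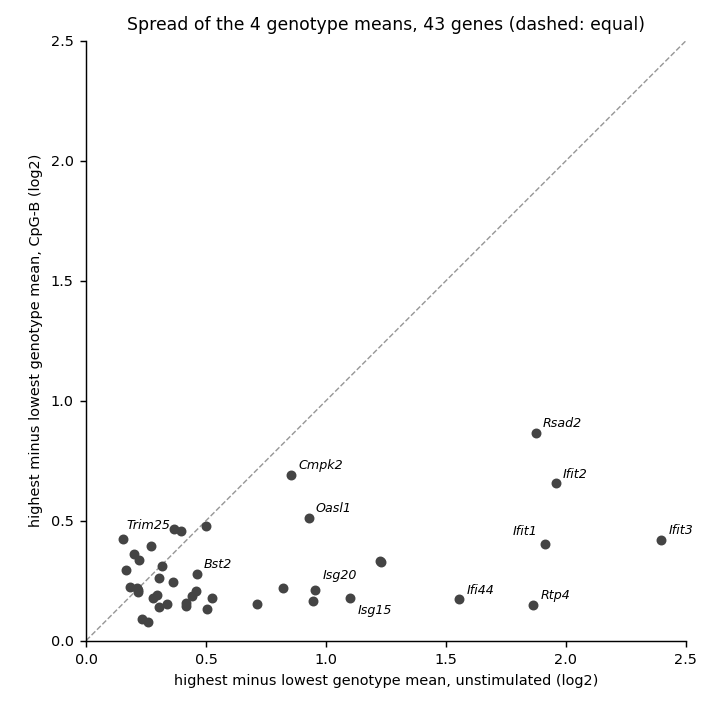
Distance between the highest and the lowest of the 4 genotype means (log2) for each measured member, without stimulus on the horizontal axis and with CpG-B on the vertical axis, with the line of equal distance. Ifit3, Rtp4 and Ifi44 lie far below the line, at 2.40, 1.86 and 1.55 without stimulus and 0.42, 0.15 and 0.17 with CpG-B.

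The distance between the highest and lowest genotype mean puts this in 1 number per gene. For the members its median was 0.42 without stimulus and 0.22 with CpG-B, and it was smaller with CpG-B for 34 of 43 (79.1%). Over 20192 features the median went the other way, from 0.19 to 0.40, and 22% had a smaller distance with CpG-B. For Rsad2 it was 1.87 before and 0.87 after, the largest of any member with CpG-B.

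Among the members called higher than WT with CpG-B, Cmpk2 had the largest difference. Its arrays were at 5.09, 5.14 and 4.99 in WT, 5.56, 5.62 and 5.76 in Irf5-KO, 4.92, 5.14 and 5.10 in Lyn-KO and 5.97, 5.63 and 5.63 in DKO. The 6 arrays without Irf5 lay above the 6 with it. Cmpk2 was higher by 0.57 ± 0.20 in Irf5-KO (adjusted p 0.0415 by limma), by 0.67 ± 0.20 in DKO, and by 0.69 ± 0.20 in DKO against Lyn-KO. Its neighbour Rsad2 was at 7.32, 7.32 and 7.46 in Irf5-KO and 6.43, 6.50 and 6.57 in Lyn-KO, with the same separation of arrays. It was called in DKO against Lyn-KO (0.80 ± 0.28), and against WT its increases of 0.67 in Irf5-KO and 0.61 in DKO had adjusted p of 0.0879 and 0.0858 in limma.

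Other members that were higher in DKO than in WT with CpG-B were Helz2 (0.48 ± 0.08), Epsti1 (0.46 ± 0.11), the galectin Lgals9 (0.46 ± 0.10), Trim25 (0.42 ± 0.08), Herc6 (0.31 ± 0.10), Ifi35, a partner of Nmi (0.30 ± 0.07), and Bst2 (0.28 ± 0.08). The dimmer second probe of Herc6 had the opposite sign in that comparison, at -0.17, so the Herc6 increase depends on the probe. Helz2 was at 7.77, 7.78 and 7.64 in WT, at 7.90, 7.91 and 7.92 in Irf5-KO, at 7.83, 7.86 and 7.79 in Lyn-KO and at 8.23, 8.21 and 8.18 in DKO. The single mutants were close above WT and DKO stood apart from all of them. Trim25 and Ifi35 were also higher in Irf5-KO, by 0.25 and 0.18. Samd9l, a restriction factor of poxviruses, was lower than WT in Irf5-KO (-0.34 ± 0.08) and in DKO (-0.21 ± 0.08), and Adar was lower in Irf5-KO (-0.19 ± 0.06). A dimmer second probe of Adar, well above background on all 24 arrays, gave 0.03 in Irf5-KO, so that decrease depends on the probe. In Lyn-KO the called members were Bst2 (0.27 ± 0.08) and Ifitm3 (0.24 ± 0.08). Whichever of the 24 arrays was left out, the calls of Helz2, Trim25, Epsti1, Lgals9 and Ifi35 in DKO and of Samd9l in Irf5-KO held, and each of the other calls against WT with CpG-B ended without at least 1 array of the groups compared, with adjusted p in limma of up to 0.172 for Ifitm3 in Lyn-KO.

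In DKO against Lyn-KO with CpG-B, 10 members were called higher and 0 lower, against 16.8% and 14.7% of all features. At an unadjusted p of 0.05 limma gave 13 higher and 1 lower, against 39.8% of all features in either direction. The groups did not overlap for 23 of 43 members (53.5%), against 43.4% of all features. Leaving out replicate 1 or 3 of DKO or replicate 2 of Lyn-KO, all with CpG-B, gave 6 called members. Beside Rsad2, Cmpk2, Helz2 (0.38), Lgals9 (0.38), Epsti1 (0.36), Trim25 (0.27) and Ifi35 (0.26), the 10 called were Oasl1 (0.51), Samhd1 (0.30) and the antibody receptor Trim21 (0.25). The calls of Helz2, Lgals9 and Ifi35 held whichever array was left out, and the others ended without 1 or more arrays of DKO or Lyn-KO with CpG-B, with adjusted p in limma of up to 0.154 for Trim21. In DKO against Irf5-KO, 3 were called higher and 0 lower, against 18.1% and 14.9%, namely Lgals9 (0.33), Helz2 (0.30) and Bst2 (0.28). At an unadjusted p of 0.05 limma gave 6 higher and 0 lower, against 41.4% of all features in either direction. The count of called members was 1 without replicate 1 of Irf5-KO with CpG-B, and 5 without replicate 3 of that group or of unstimulated DKO. The loss of Irf5 could be compared with Lyn present and absent, in comparisons with no common array. There the differences over the 43 members correlated with r = 0.886 and rho = 0.821 with CpG-B, and Cmpk2, Trim25 and Ifi35 were called higher in both. Without stimulus the same pair gave r = -0.305. DKO had the highest mean with CpG-B for 26 of 43 members, WT for 9, Irf5-KO for 5 and Lyn-KO for 3.

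The interferon genes did not follow the same pattern as the members. With CpG-B, 11 of the 13 measured interferon genes were called lower in Irf5-KO than in WT, with a median difference of -0.99, and Ifnb1 was at -2.24 ± 0.25. In Lyn-KO all 13 were called higher, with a median of 2.80, an Ifnb1 difference of 2.72 ± 0.25 and an Ifna4 difference of 3.20 ± 0.36. In DKO 11 were called higher, with a median of 1.53. Close sequences mean that probes of the interferon alpha genes may read one another's transcripts. The median level of the interferon genes on an array with CpG-B was 1.62 to 2.26 in WT, -0.14 to 0.39 in Irf5-KO, 3.92 to 3.98 in Lyn-KO and 2.74 to 2.93 in DKO, so no groups overlapped. The median level of the members on the same arrays lay between 6.31 and 6.57 in all 4 genotypes.

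**Figure D5:**
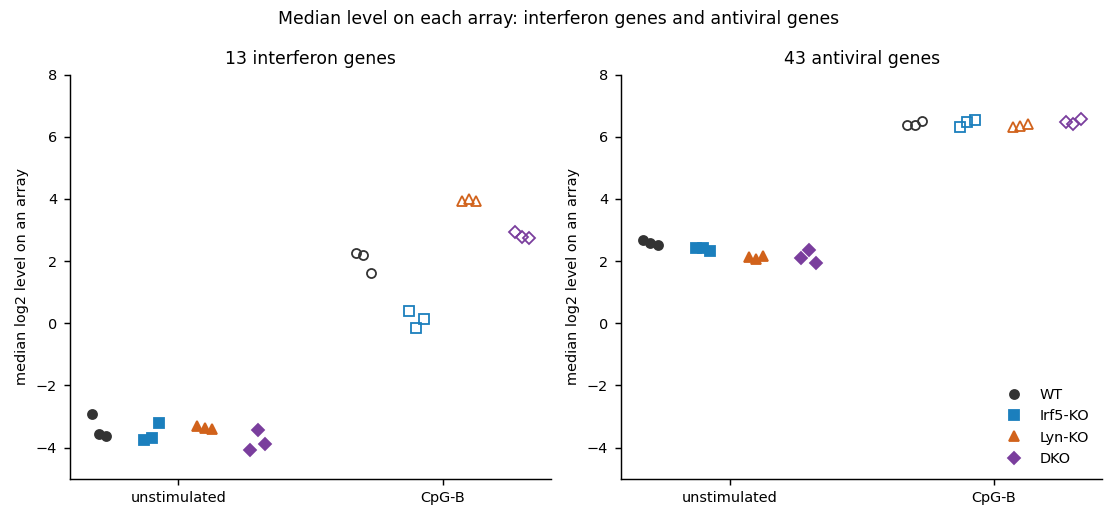
Median level of the 13 interferon genes (left) and of the 43 members (right) on each of the 24 arrays, by genotype and stimulation, in log2 units relative to the 75th percentile of the array. With CpG-B the members stay between 6.31 and 6.57 while the interferon medians run from -0.14 to 3.98.

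Without stimulus the members' median was 2.51 to 2.68 on WT arrays, 2.31 to 2.43 in Irf5-KO, 2.08 to 2.18 in Lyn-KO and 1.95 to 2.34 in DKO. Of the genes that carry the interferon signal, Stat2 and Irf9 were not called with CpG-B in any mutant against WT. In that state Jak1 was lower in Lyn-KO (-0.64 ± 0.06) and DKO (-0.47 ± 0.06), and Tyk2 was higher in Irf5-KO (0.59 ± 0.12) and DKO (0.95 ± 0.12). Irf8, which sustains plasmacytoid and type 1 conventional dendritic cells, was lower in Irf5-KO (-1.50 ± 0.09) and higher in Lyn-KO (0.81 ± 0.09). Irf7 was at 0.01, 0.01 and 0.19 in Irf5-KO, Lyn-KO and DKO against WT and was not called.

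The response to CpG-B was larger in the mutants than in WT by the test of the difference itself. Limma called a larger response for 8 members in Irf5-KO, for 17 members in Lyn-KO, for 23 members in DKO, and 0 with a smaller one in any of them, against 7.48%, 6.04% and 17.3% of all features called larger and 5.16%, 5.02% and 13.2% called smaller. At an unadjusted p of 0.05 limma gave 19, 24 and 28 members larger and 0 smaller. The share of all features at that p, in either direction, was 23.8%, 23.1% and 39.5%. The median differences of the members were 0.35, 0.40 and 0.42. By construction this value is the difference with CpG-B minus the difference without it, so it draws on the same unstimulated arrays. For Ifit3 in Lyn-KO, the larger response of 2.40 ± 0.42 is made of 0.11 with CpG-B and -2.29 without. For Cmpk2 in DKO the parts were 0.67 with CpG-B and -0.77 without. Without replicate 1 of unstimulated WT the counts were 4, 11 and 18. In Irf5-KO the count was 5 without replicate 1 of unstimulated Irf5-KO or replicate 3 of either group with CpG-B, 13 without replicate 3 of unstimulated WT and 14 without replicate 2 of unstimulated DKO.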

How the data were processed

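The deposited scanner files of 24 arrays hold, per the file headers, processed intensity from Feature Extraction 10.7.3.1, background-subtracted and not scaled between arrays. The deposited series table holds log2 values, used as an alternative. Over 17008 probes with a mean signal of at least 200 it matched the scanner values scaled to the 75th percentile and centred on each probe's median, with a 95th percentile of the absolute difference of 0.0143, and its column medians ran from -0.2727 to 0.3755. The centre and scale of that table were inferred from this comparison.

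Here levels are log2 signal minus the array's 75th percentile, with control spots, spots marked as not uniform or as outliers, and probes with no group in which all 3 arrays exceeded background clearly left out. Probes were named by accession. A gene is its kept probe with the highest mean. For 14 members another 15 probes were kept, and of 99 called results 97 had the same sign on them, 83 were also called and 0 were called in the opposite direction. One mean per group was fitted to all 24 arrays in limma 3.58.1 (R 4.3.3, with version 1.17.8 of the package data.table), with Benjamini-Hochberg adjustment within a contrast and 2-sided tests. The script was tested on simulated data. Precision is limited by the number of arrays. All 47 members could be named, and those with values in every group were the members with a called change among the 6 largest of a contrast in either direction, picked further after their values were seen. Pathway and marker lists come beside them, and 1 pathway gene is not reported here. Members and lists were chosen with earlier results of these data known.

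Alternatives were quantile normalisation, normexp with an offset of 50, scaling to the median of detected probes, no filter and a stricter filter on dim probes, the mean over probes, a block for the replicate number, a fit of only the groups compared, a trended and robust variance prior, the series table, and leaving out each array in turn.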

Additional observations from a re-analysis of the deposited data

Results flagged for a closer look

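By limma's test of the difference itself, 23 of 43 members had a larger CpG-B response in DKO than in WT, 17 in Lyn-KO and 8 in Irf5-KO. None was called smaller. The share of all features called larger was 17.3%, 6.04% and 7.48%. In Irf5-KO the count was 4 without replicate 1 of unstimulated WT or under quantile normalisation, and 3 with no filter on dim probes. The 3 largest called differences in Irf5-KO were those of Ifit2 (1.60), Ifit3 (1.59) and Rsad2 (1.38). In Lyn-KO they were Ifit3 (2.40), Ifit2 (1.79) and Rtp4 (1.72), and in DKO Ifit3 (2.82), Rsad2 (2.27) and Ifit2 (2.16). The 3 tests share the WT arrays. The unstimulated difference from WT makes up most of the value for these genes, except for Rsad2 in Irf5-KO. There the parts were near equal, at 0.67 with CpG-B and -0.71 without.

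The test of whether the Lyn effect depended on Irf5 called 1 member in unstimulated cells, Ifi44, at 2.16, against 0.0841% of all features. Leaving out 1 array gave 0 to 3 called members, and the call of Ifi44 was lost for most arrays. With the slide as a block, or with no filter on dim probes, 0 members were called. Ifi44 was well above background on 2 of 3 arrays in Lyn-KO and in DKO.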

How the results depend on the processing

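Of 301 called member results, 241 kept their call whichever array was left out, and between 0 and 73 lost it under any of 34 settings. The only reversal was the WT response of Trim25, at -0.0286 under quantile normalisation. Under that scaling 1 member was called in unstimulated Irf5-KO, 2 in Irf5-KO with CpG-B, and 4 differed in response in Irf5-KO. Scaling to the median of detected probes gave 1 in unstimulated Irf5-KO and 1 in Lyn-KO with CpG-B. With no filter on dim probes the counts were 0 in unstimulated Irf5-KO, 4 in unstimulated DKO against Irf5-KO, 1 in Irf5-KO and 0 in Lyn-KO with CpG-B, 3 and 11 for the difference of response in Irf5-KO and Lyn-KO, and 0 for the Irf5 dependence of the Lyn effect without stimulus. That last count was also 0 with only probes detected on all arrays. The mean over probes gave 1 in unstimulated Irf5-KO, and the prior with trend and robust estimation 4. With only the groups compared in the fit, unstimulated counts were 2 in Lyn-KO, 1 in DKO, 0 in Irf5-KO, 4 in DKO against Irf5-KO and 0 for the Irf5 dependence, with 1 in Lyn-KO with CpG-B and 10 for its difference of response. With CpG-B that fit called 13 in DKO against WT and 12 in DKO against Lyn-KO, where the main fit called 9 and 10. It rests on fewer samples and uses only the spread of the groups compared. The median SD of the members was 0.18 in unstimulated WT and 0.21 in unstimulated DKO, against 0.08 in each with CpG-B. The cause of these changes in count was not tested for any setting.

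The replicate number is also the slide. Deviations of same-numbered arrays had a median correlation of 0.055, over 0.1 for 25 of 84 pairs, against -0.03 and 2 of 168 pairs for others, so arrays of a slide shared part of their deviation, though not in every pair. With the number as a replicate block, 24 members were called in unstimulated Lyn-KO, 22 in DKO and 1 in Irf5-KO, and 0 for the Irf5 dependence.

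Leaving out each array gave 42 to 43 called for the WT response and 43 to 43 in the mutants. Without stimulus it gave 15 to 24 in Lyn-KO, 14 to 22 in DKO, 0 to 9 in Irf5-KO, 3 to 10 in DKO against Irf5-KO and 0 to 1 against Lyn-KO. With CpG-B the ranges were 0 to 3 in Lyn-KO, 6 to 11 in DKO and 1 to 8 in Irf5-KO against WT, and in DKO 1 to 5 against Irf5-KO and 6 to 11 against Lyn-KO. The difference of response gave 4 to 14, 11 to 21 and 17 to 25, and the Irf5 dependence 0 to 3 without and 0 to 0 with CpG-B.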
